A study of Drosophila melanogaster with 3 samples.

Results

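The genes described here are the 10 transcription factor genes of the ecdysone response, EcR, usp, Eip75B, Eip74EF, Eip78C, br, Hr3, Hr4, Hr39 and ftz-f1, out of 13968 protein-coding genes on the main chromosome arms. They were chosen by name, with earlier results of these peak lists known, and their peaks were selected on position: a peak summit was taken when it lay within 500 bp of an annotated transcript start, in an intron or exon, or within 5 kb of the gene. By that rule the 10 genes held 79 of the 8188 summits in the main peak list (0.965%), and no summit was counted for more than 1 of them. All counts below are therefore descriptions, and no test was run on them. The same count over other genes is given beside them where it was made, which was not the case for every count.

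Peaks were measured by chromatin immunoprecipitation and sequencing (ChIP-seq) of CG7839, the Drosophila member of the nucleolar complex proteins also called Noc1, in whole embryos aged 0 to 24 h. The flies were a stable transgenic line in which CG7839 carries GFP at its C-terminus, males and females were pooled, and the chromatin was precipitated through the GFP. There was 1 group of 3 biological replicates, with no other genotype, treatment or time, and the sources used here do not give the promoter that drives the transgene. Each replicate has a list of 30000 peaks, as has the pool of all 3, and the peaks that met the authors' threshold on the irreproducible discovery rate (IDR) form the main list, called the IDR list. Peaks are compared by rank, where rank 1 has the largest deposited signal value of its list, and the 8188 strongest peaks of a replicate give a list as long as the IDR list. Being in the IDR list is a cutoff on pooled rank, since it holds exactly the pooled peaks ranked 1 to 8188. Whole embryos mix all cell types of a day of development, and the files hold peaks only, so the tissue could not be set against marker genes and the read depth is unknown.

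Ecdysone is the steroid hormone that times moulting and metamorphosis in insects, and a pulse of it in mid-embryogenesis is needed for the late movements that shape the embryo. It binds a heterodimer of the nuclear receptors EcR and usp on DNA, which switches on a small set of early genes that encode transcription factors, among them Eip75B, Eip74EF and br. Their products and the receptor then act on a later layer, Hr3, Hr4, Hr39, Eip78C and, when the hormone has fallen again, ftz-f1. Most of these genes have long introns and several alternative starts, whose use differs between stages and tissues.

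The sequence around 5 of the summits shows what the peaks of these genes look like. Each line gives a summit and the 100 bp on either side of it, read from the RefSeq Release 6 (dm6) genome on the plus strand, and none of the 5 windows touches an annotated exon. The first lies in an intron of Hr4 at chrX:1944316-1944516 and is shown because, of the 8188 IDR summits, it is the only one whose window holds GGTCANTGACC, the palindrome of 2 nuclear receptor half-sites with 1 base between them that is the textbook form of an ecdysone response element. It was picked out after its motif was seen, and the others were the strongest windows free of exons in their genes. The second is the strongest Hr4 summit (chrX:1947655-1947855), the third line the strongest Eip75B summit outside a start (chr3L:18005146-18005346), the fourth the strongest Eip74EF summit (chr3L:17566924-17567124) and the fifth the summit 183 bp upstream of usp-RB (chrX:2042394-2042594). Capitals mark the palindrome in the first, a receptor half-site (TGACCT on this strand) and CAGGTA in the fourth, and CGATA in the fifth; the second and the third hold none of the 6 motifs searched and have no capitals.
Hr4, palindrome: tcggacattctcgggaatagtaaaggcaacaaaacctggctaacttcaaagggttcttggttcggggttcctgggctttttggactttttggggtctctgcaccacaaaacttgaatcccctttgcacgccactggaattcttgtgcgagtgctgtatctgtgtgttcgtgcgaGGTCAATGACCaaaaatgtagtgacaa
Hr4, strongest: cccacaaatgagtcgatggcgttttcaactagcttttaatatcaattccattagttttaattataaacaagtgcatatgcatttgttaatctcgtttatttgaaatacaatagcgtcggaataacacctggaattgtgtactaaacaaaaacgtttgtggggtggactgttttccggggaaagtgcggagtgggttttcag
Eip75B, intron: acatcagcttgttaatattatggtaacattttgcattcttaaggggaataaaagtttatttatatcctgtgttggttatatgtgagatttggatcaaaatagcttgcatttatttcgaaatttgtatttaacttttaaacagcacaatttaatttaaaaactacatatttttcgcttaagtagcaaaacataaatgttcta
Eip74EF, intron: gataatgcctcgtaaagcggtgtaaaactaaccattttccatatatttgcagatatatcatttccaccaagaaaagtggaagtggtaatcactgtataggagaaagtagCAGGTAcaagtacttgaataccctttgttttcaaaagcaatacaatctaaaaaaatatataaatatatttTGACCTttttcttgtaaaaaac
usp, start: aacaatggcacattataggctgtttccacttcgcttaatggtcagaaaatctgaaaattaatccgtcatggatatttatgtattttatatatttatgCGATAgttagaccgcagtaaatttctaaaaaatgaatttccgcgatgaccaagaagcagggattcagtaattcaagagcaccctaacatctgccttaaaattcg

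The palindrome began 74 bp and ended 84 bp after the Hr4 summit, at GGTCAATGACC. That summit ranked 4196 in the IDR list and 4669, 2942 and 4243 in replicates 1, 2 and 3, so it was near the middle of the IDR list and among the 8188 strongest of the 30000 peaks of each replicate. Arms 2L, 2R, 3L, 3R, 4 and X together held 69 matches to the palindrome, which reads the same on both strands. Of these, 1 lay within 100 bp of an IDR summit and 2 within 500 bp, and the one in Hr4 was the only match in or within 5 kb of the 10 genes. A match is a description of the letters and says nothing of which protein binds there.

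Most summits of the response genes lay inside introns and away from transcript starts. Of the 79 IDR summits, 57 were in introns (72.2%), 8 within 500 bp of a start (10.1%), 3 in exons (3.8%) and 11 in the 5 kb on either side (13.9%). In the 8188 strongest peaks of replicates 1, 2 and 3, the 10 genes held 54, 55 and 56 intron summits, 6, 8 and 7 start summits, 2, 3 and 1 exon summits and 12, 15 and 13 flank summits. The 3 replicates thus gave nearly the same total of intron summits and differed by at most 3 summits in any other class. Equal totals need not be the same summits: EcR had 3, 8 and 7 intron summits in replicates 1, 2 and 3. Of the 57 intron summits in the IDR list, 38 were matched among the 8188 strongest peaks of every replicate. Over the 1985 protein-coding genes of 10 kb or more, 55.4% of the IDR summits counted in the same way were in introns, 17.3% at starts, 0.969% in exons and 26.3% in flanks. Because 9 of the 10 genes span over 10 kb, these long genes are the nearer background, but they are not matched for length. Their median span was 20.6 kb, against 55.7 kb for the 10 genes, and whether this bears on the shares was not tested. Over all protein-coding genes, 21.3% of such summits were in introns and 21% at starts.

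Counted by gene, 4 of the 10 had an IDR summit at a start (EcR, usp, Eip75B and Hr39). In usp and Hr39 these summits also lay within 500 bp of the start of another protein-coding gene. A start summit was present in 22.8% of all protein-coding genes and in 39.4% of those of 10 kb or more, so the share of the response genes was close to that of other long genes. In the 8188 strongest peaks of replicates 1, 2 and 3, a start summit was found in 4, 4 and 5 of the 10. An intron summit was present in 8 of the 10, all but usp and Hr39, against 53.8% of the genes of 10 kb or more and 10.5% of all protein-coding genes. By median span both backgrounds are shorter than the 10 genes, and these shares were not matched for length. A flank summit was present in 8 of the 10, all but EcR and br, against 47.9% of the genes of 10 kb or more. In the longer pooled list, 8 of the 10 had a start summit, against 37.6% of all protein-coding genes. The pooled share was not counted for the genes of 10 kb or more, so a comparison with other long genes is missing here.

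**Figure D1:**
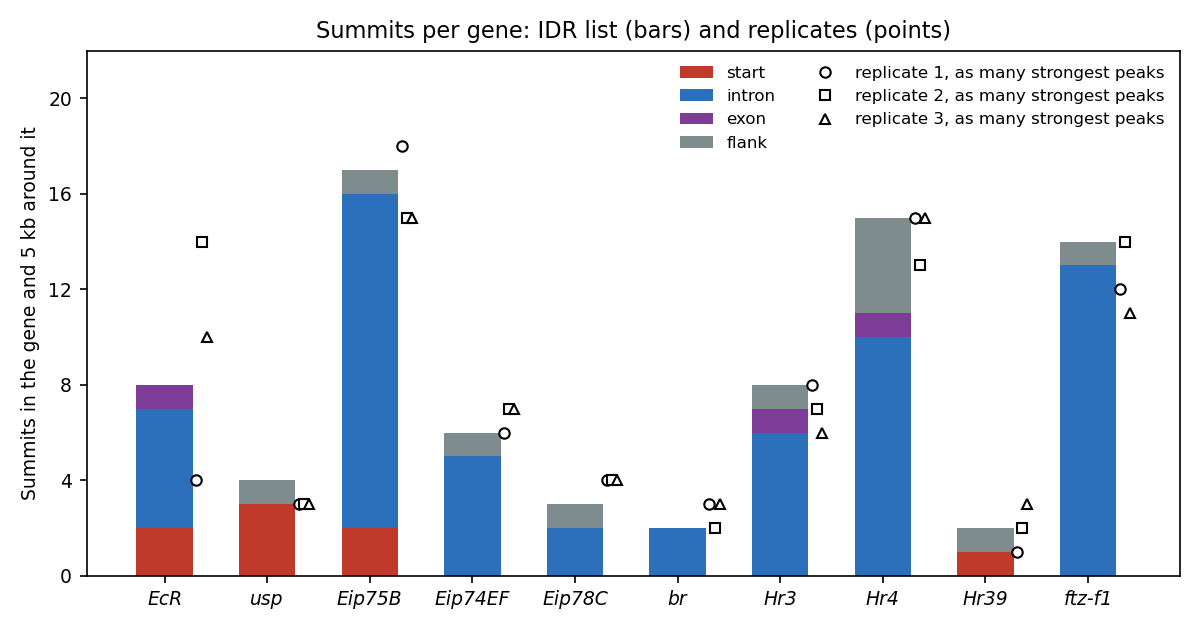
Number of summits in each gene and the 5 kb around it. Bars give the IDR list split into start, intron, exon and flank summits, and points the totals among the 8188 strongest peaks of each of the 3 replicates; Eip75B (17), Hr4 (15) and ftz-f1 (14) have the tallest bars, mostly intron, and the EcR points spread from 4 to 14.

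EcR encodes the ligand-binding part of the ecdysone receptor, as isoforms from 3 groups of starts. The gene spans 81.2 kb on the minus strand of arm 2R (6087873 to 6169087) and had 8 IDR summits, 5 of them in introns and 2 at starts. Its total among the 8188 strongest peaks was 4, 14 and 10 in replicates 1, 2 and 3 (9.33 ± 5.03, SD, n = 3), so replicate 1 had well under the count of the others. The outermost start, EcR-RA, had no IDR summit. The middle start, of EcR-RD and EcR-RE, had a summit 367 bp upstream with rank 3223, and ranks of 2650, 3065 and 4695 in replicates 1, 2 and 3. The innermost start, of EcR-RB, EcR-RC and EcR-RG, had one 10 bp upstream with rank 7010; the best summit near this start ranked 10548, 5536 and 9107 in the replicates, so only replicate 2 placed it among its 8188 strongest. The strongest EcR summit lay in an intron (6151261), 5868 bp downstream of the middle start, with rank 1667 in the IDR list and a mean rank of 1782 ± 356 (SD, n = 3). Another intron summit of EcR, with rank 6727, was 14 bp from the start of the asparagine tRNA gene tRNA:Asn-GTT-1-6, which lies inside EcR.

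The partner of EcR, usp (ultraspiracle, the fly counterpart of the vertebrate RXR receptors), is the only short gene of the 10, at 3.51 kb on the minus strand of X (2038798 to 2042311). It had 4 IDR summits, 3 at its starts and 1 in the flank beyond its 3′ end. The summit 100 bp upstream of usp-RA ranked 2152 in the IDR list and 2403, 2614 and 1605 in replicates 1, 2 and 3. A second summit of the same peak, 199 bp away, ranked 7904, and the one 183 bp upstream of usp-RB ranked 4366, with 4211, 6123 and 3916 in the replicates. Both starts of usp thus had a summit among the 8188 strongest peaks of each replicate. The usp starts are shared ground: usp lies inside Actn, which encodes the muscle protein alpha-actinin and whose first start is the same base as that of usp-RB, and CG4313 begins on the other strand between the usp starts, 456 bp from the stronger summit. Which of these genes a summit belongs to cannot be told from its position.

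Eip75B encodes a nuclear receptor that binds heme and inhibits Hr3. It had the most IDR summits of the 10 genes, 17, of which 14 were in introns, 2 at starts and 1 in a flank, over a span of 114 kb on the minus strand of 3L (17950953 to 18064696). Its total among the 8188 strongest peaks was 18, 15 and 15 in replicates 1, 2 and 3 (16 ± 1.73). The strongest of them lay 35 bp downstream of the start of Eip75B-RC, the fifth of 7 starts along the gene, with rank 399 in the IDR list and 413, 323 and 466 in the replicates. The next best start of the 10 genes, that of usp-RA, ranked 2152. The start of Eip75B-RA had a summit 173 bp downstream with rank 7172 and best ranks of 9814, 4900 and 8262, and the other 5 starts had none in the IDR list. In the pooled list, Eip75B-RG had a summit with rank 9085 and Eip75B-RD one with rank 8392, just outside the IDR list. Eip75B-RF and Eip75B-RB had none in any list.

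The summits of Eip75B were gathered in the middle of the gene. The 26.2 kb between the starts of Eip75B-RG and Eip75B-RC held 6 IDR summits, and the 28.4 kb from there to Eip75B-RA another 6, the one at Eip75B-RC included. The 33.6 kb stretch upstream of Eip75B-RG held 2, and the last 10.9 kb none. The 3 neighbouring intron summits upstream of Eip75B-RC ranked 1409, 871 and 1164, at 9348, 5425 and 3747 bp from that start. The nearest of the 3, at 18003568, ranked 1291, 1155 and 1130 in replicates 1, 2 and 3, so this stretch of intron was found at much the same rank in each.

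Eip74EF encodes an Ets-family factor and is transcribed from 2 groups of starts over 60.7 kb on the minus strand of 3L (17558672 to 17619325). It had 6 IDR summits, 5 in introns and 1 in the upstream flank, and replicates 1, 2 and 3 had 6, 7 and 7 among their 8188 strongest. Neither start group had an IDR summit; in the pooled list they had 1 each, ranked 15610 and 14782. The strongest summit lay in an intron 9296 bp downstream of the inner starts (17567024), with rank 1193 and a mean rank of 1219 ± 166 (SD, n = 3), and is the fourth sequence above. The flank summit was 45 bp from the start of Vps60, a neighbouring gene for a protein of endosomal sorting.

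Another early gene, br (broad), encodes zinc finger factors that specify the pupal stage, and it had few peaks for its length. Its 89.7 kb on the plus strand of X (1575132 to 1664869) held 2 IDR summits, both in introns, the same total as the median of the genes of 10 kb or more, and no summit of any list lay within 500 bp of any of its 6 start groups. Among the 8188 strongest peaks it had 3, 2 and 3 summits in replicates 1, 2 and 3. The stronger summit (1618868) ranked 1007 in the IDR list and 813, 1304 and 1165 in the replicates, 3440 bp upstream of br-RM and br-RS. It is also 713 bp from the start of Mur2B, a gene that spans br on the other strand. At 0.0223 summits per kb, br was below the median of the genes of 10 kb or more, 0.0365.

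Eip78C, a nuclear receptor related to Eip75B, had 3 IDR summits over 39.9 kb on the plus strand of 3L (21226609 to 21266503) and 4 in the strongest peaks of every replicate. None was at a start, in the IDR list or in the pooled list. The strongest lay in an intron 13545 bp downstream of the inner start (21253892), with rank 3477 and ranks of 3659, 3509 and 3772 in replicates 1, 2 and 3. Among the 8 genes with an intron summit, this was the lowest rank of a strongest intron summit, and it was steady across the replicates.

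Hr3, the fly counterpart of the vertebrate ROR receptors and an activator of ftz-f1, held the strongest summit of all 79. It lay in an intron (10220061 on arm 2R), 7896 bp downstream of the start of Hr3-RA, Hr3-RF and Hr3-RH, with rank 98 in the IDR list. Its ranks were 93, 108 and 92 in replicates 1, 2 and 3 (97.7 ± 8.96), so it was among the strongest peaks of the genome in each. The gene spans 33.4 kb on the minus strand (10203995 to 10237348) and had 8 IDR summits, 6 in introns, 1 in an exon and 1 in a flank, and replicates 1, 2 and 3 had 8, 7 and 6 among their 8188 strongest. The next strongest was in the intron between the second and the last start group, with rank 696 and ranks of 694, 704 and 667. None of the 3 start groups had an IDR summit, and in the pooled list only the last had one, ranked 9462. CG12912 and CG46321 are annotated on the same strand and within Hr3, and each shares its first base with a start of Hr3, so each intron summit lies in at least 1 of those genes as well.

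Hr4, a nuclear receptor that helps to end the early response, had 15 IDR summits over 66 kb on the plus strand of X (1941940 to 2007956), 10 in introns, 1 in an exon and 4 in flanks. Among the 8188 strongest peaks it had 15, 13 and 15 in replicates 1, 2 and 3 (14.3 ± 1.15). Its 3 strongest intron summits ranked 307, 353 and 428 in the IDR list, at 5815, 21993 and 9974 bp from the outer start. The first of them, the second sequence above, ranked 333, 288 and 322 in the replicates (314 ± 23.5). The introns of its longer transcripts were the dense region: 10 IDR summits lay in the 50.4 kb between the outer and the inner start group, and 1 in the 15.7 kb after it. Neither start group had an IDR summit, and their best summits in the pooled list ranked 21270 and 14018. All 4 flank summits lay near the start of a gene next to Hr4: 126 bp from CG3587, 292 bp from PIG-K, 98 bp from lncRNA:CR45478 and 520 bp from east.

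Hr39, a receptor close in sequence to ftz-f1, was the opposite case, with a single start and no IDR summit in the 22.4 kb of its span on the plus strand of 2L (21237250 to 21259675). A summit 29 bp upstream of the start, and 488 bp from the start of the protein-coding gene CG31626, ranked 7061 in the IDR list. It ranked 4804 and 5472 in replicates 1 and 3, and replicate 2 had no summit within 100 bp of it. The other summit was in the downstream flank, had rank 6117 and was matched in replicate 3 alone. Neither of the 2 was thus among the strongest peaks of all 3 replicates.

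ftz-f1 encodes the receptor that makes late targets responsive to the next ecdysone pulse, and in the early embryo its maternal form is the partner of the segmentation protein Ftz. It had 14 IDR summits over 50.7 kb on the minus strand of 3L (18750607 to 18801309), 13 of them in introns and 1 in a flank, and replicates 1, 2 and 3 had 12, 14 and 11 among their 8188 strongest (12.3 ± 1.53). The 35.6 kb between the start of ftz-f1-RB and that of ftz-f1-RC and ftz-f1-RD held 12 of the 13, at 0.337 per kb. The strongest (18769541) lay 3797 bp upstream of the inner start with rank 1253 and ranks of 1268, 1391 and 1134 in the replicates (1264 ± 129). The starts themselves had no IDR summit; the best in the pooled list ranked 18474, at ftz-f1-RC and ftz-f1-RD. Most of the summits in this stretch also lie in the span of the non-coding RNA gene lncRNA:CR45939. Of the 79 summits, the 1 without a match among the 8188 strongest peaks of any replicate was in this stretch (18791837), with ranks of 11050, 10343 and 9991.

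**Figure D2:**
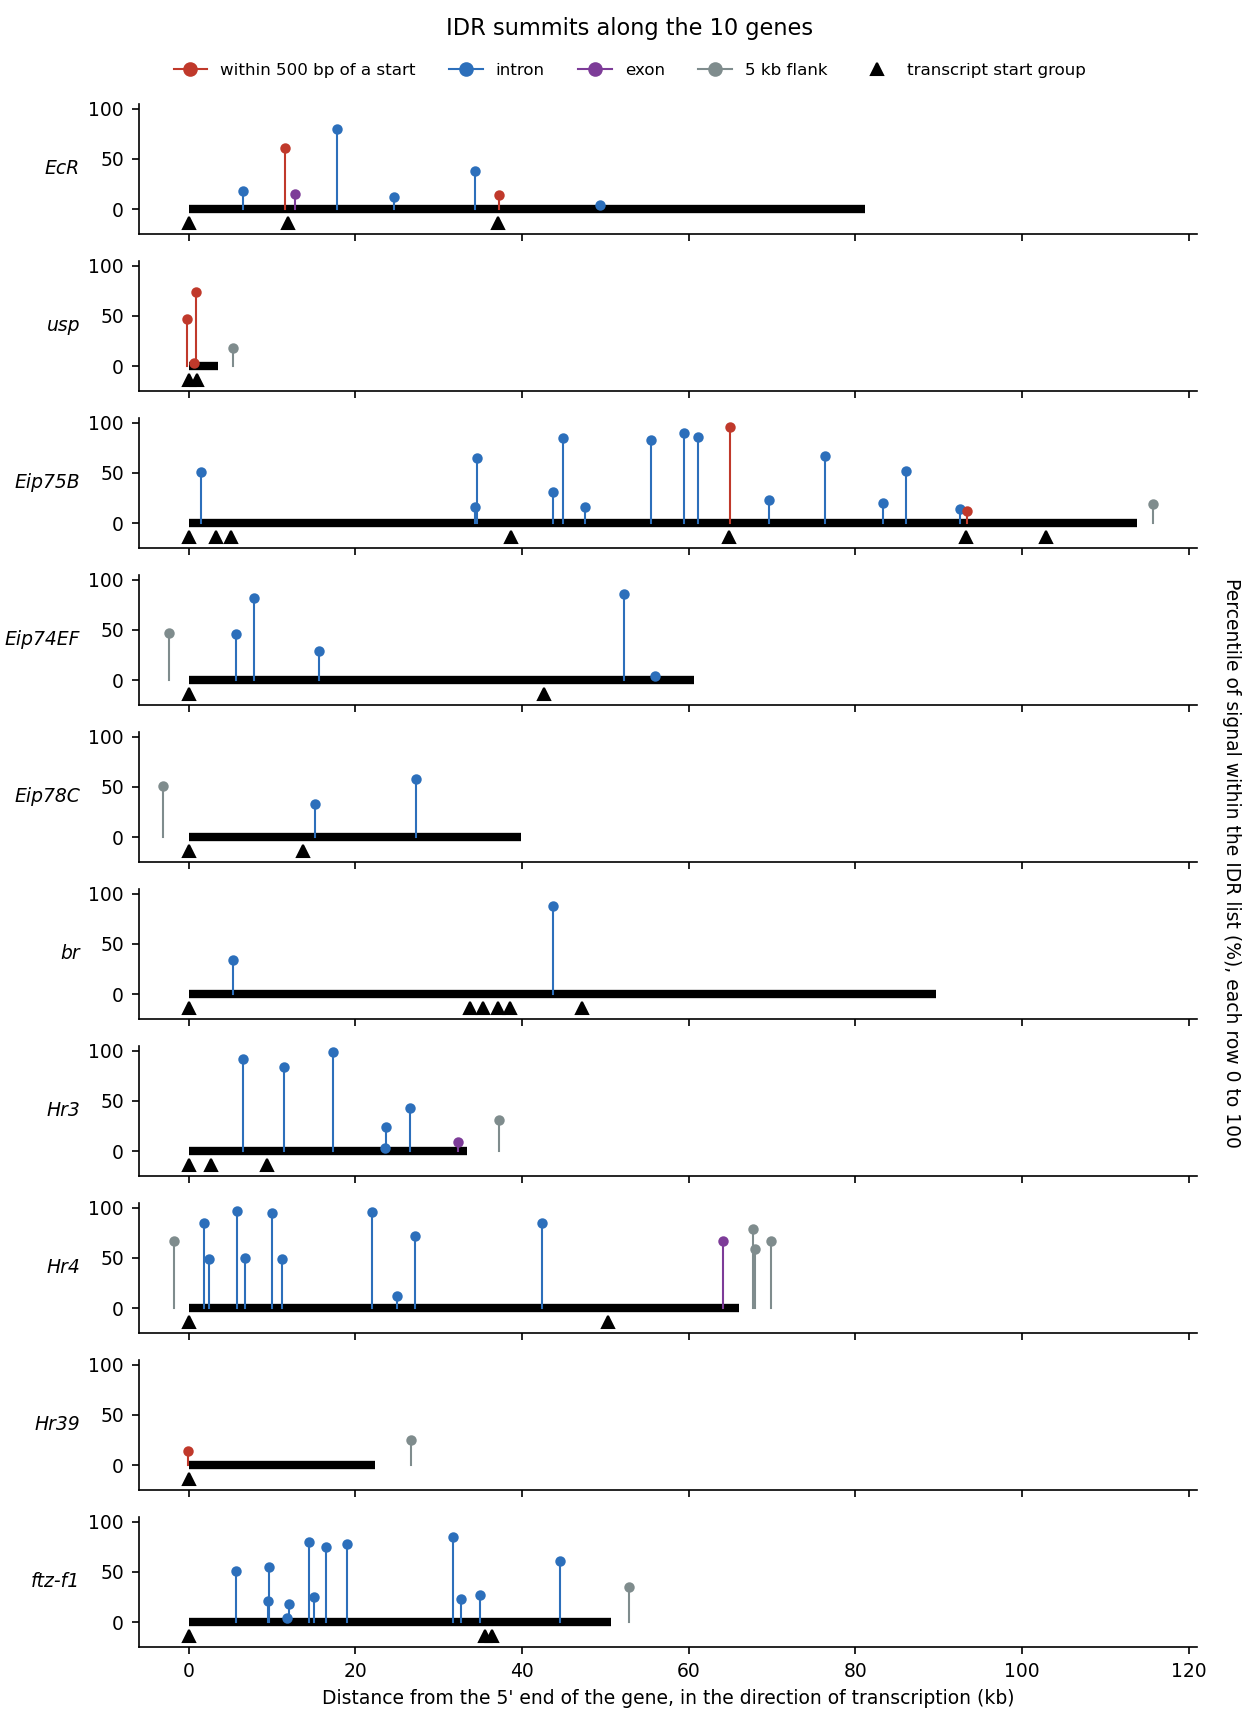
Position of each IDR summit along the 10 genes, drawn from the 5′ end in the direction of transcription (kb). The black bar is the gene, triangles are groups of transcript starts, and the height of a stem is the percentile of the summit's signal in the IDR list (100 is strongest). Stems crowd in the middle of Eip75B and in the 5′ parts of Hr4 and ftz-f1, while most of the 31 start groups have no stem beside them.

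Counted by start group, 7 of the 31 groups had an IDR summit, and 17 had one in the pooled list. Start groups of other genes were not counted, so these shares are not read as particular to the 10 genes. In the full lists of replicates 1, 2 and 3, 15, 18 and 14 groups had one. The groups without an IDR summit therefore include 10 with a weaker summit in the pool, whose ranks lay between 8392 and 29340. The farthest summit that was still counted at a start was that of EcR at 367 bp, and the next one out was a ftz-f1 summit at 623 bp. For the flanks, the farthest summit counted was 4302 bp from Hr39, and the next one out 5752 bp from Hr3.

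Per kb of gene, usp had 0.569 IDR summits, ftz-f1 0.256, Hr3 0.21, Hr4 0.167, Eip75B 0.141, EcR 0.0985, Eip74EF 0.0824, Eip78C 0.0501, br 0.0223 and Hr39 none. The median of the 10 was 0.12, and in the 8188 strongest peaks of replicates 1, 2 and 3 it was 0.116, 0.134 and 0.111 (0.12 ± 0.0119, SD, n = 3). The genes of 10 kb or more had a median of 0.0365 and a 90th percentile of 0.188, and the median of all protein-coding genes was 0. Of the 9 long genes of the response, ftz-f1 and Hr3 lay above that 90th percentile, br and Hr39 below that median, and the other 5 between them. Some neighbours in this order have replicate ranges that overlap, and the order was not tested. Of these, ftz-f1 (0.217, 0.256 and 0.197 in replicates 1, 2 and 3) was above Hr3 (0.21, 0.18 and 0.18) in each replicate. Eip75B (0.149, 0.132 and 0.123) was above EcR (0.0493, 0.135 and 0.0985) in replicates 1 and 3 and below it in replicate 2. The range of EcR also holds all 3 values of Eip74EF (0.0824, 0.0824 and 0.0989), and EcR was above Eip74EF in replicate 2 alone. The rate of usp rests on 2 summits within its 3.51 kb and is not comparable in precision with those of the long genes.

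The long genes next to usp and ftz-f1 in this order were taken by their rate, and their roles were not compared. At 3.51 kb, usp is itself not one of the genes of 10 kb or more, and over all protein-coding genes the highest rate was 3.04 per kb. Of the genes of 10 kb or more, only CG14434 (0.589 per kb) had a higher rate than usp. Next below came Kdm2, for a histone demethylase, bowl, for a zinc finger factor of segmentation, and HmgZ, for a chromatin protein. Their rates were 0.558, 0.483 and 0.482. Around ftz-f1, in a second set that was chosen after the values were seen, were apt (0.26), CG10283 (0.26) and tou (0.259) above and CG46310 (0.255), trx (0.255) and CG9815 (0.254) below. By total count in the gene and its flanks, Eip75B was in place 11 of the 1985 long genes, Hr4 in place 21 and ftz-f1 in place 26. By intron summits alone, the places were 11 for Eip75B, 16 for ftz-f1 and 31 for Hr4. These places are by count, which a long span can raise. By summits per kb, the same genes were in place 353 (Eip75B), 265 (Hr4) and 89 (ftz-f1) of the 1985. These 3 genes together held 46 of the 79 summits and 37 of the 57 in introns.

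**Figure D3:**
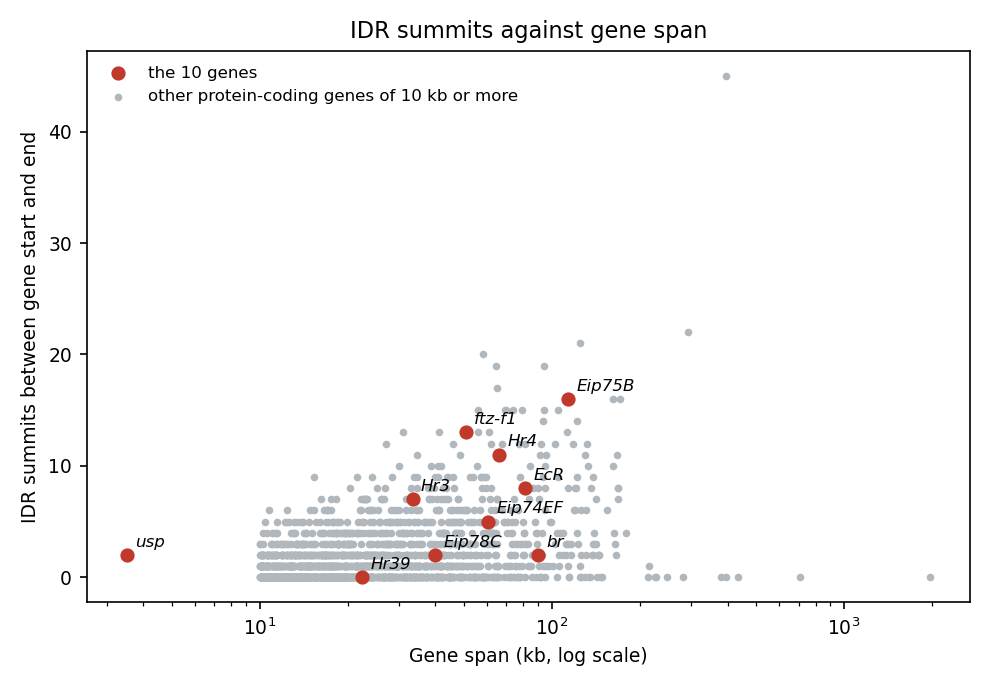
IDR summits between gene start and gene end (y axis) against gene span in kb (x axis, log scale) for the 10 genes, in red, and the other protein-coding genes of 10 kb or more, in grey. Eip75B, ftz-f1 and Hr4 have 16, 13 and 11 summits and br and Hr39 have 2 and 0, and grey points lie both above and below the red ones at most lengths.

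In strength the summits of the response genes were spread over the whole list. Their median rank was 4196 of 8188, against 4094.5 for all IDR summits. The 500 strongest IDR summits included 5 of the 79 (6.33%), which were the Hr3 summit, the 3 of Hr4 and that of Eip75B-RC, against 6.11% of all IDR summits. The 1000 strongest included 7 (8.86%), against 12.2% of all, the 2000 strongest 21 (26.6%), against 24.4%, and the 4000 strongest 35 (44.3%), against 48.9%. The share of the response genes was thus above that of all summits in some tiers and below it in others. Start summits had a median rank of 5688 (n = 8), intron summits 4052 (n = 57) and flank summits 4323 (n = 11). The intron summits lay between 623 and 25014 bp from the nearest start of their gene, with a median of 7896 bp.

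The replicates found most of the strong summits at similar ranks and differed more on the weak ones. An exception was the Hr4 flank summit at 2009656, with rank 1750 in the IDR list. It ranked 1074 and 2401 in replicates 1 and 3, and replicate 2 had no summit within 100 bp of it. A match within 100 bp among the 8188 strongest peaks of every replicate was found for 48 of the 79 summits (60.8%), against 67.3% of all IDR summits, and a match in at least 2 replicates for 64 (81%), against 87.1%. By class, 38 of 57 intron summits, 4 of 8 start summits, 5 of 11 flank summits and 1 of 3 exon summits were matched in all 3. By gene, Eip74EF (5 of 6) and Hr4 (12 of 15) had the highest shares, and EcR (3 of 8) and Hr39 (0 of 2) the lowest. With 1 replicate left out, keeping the summits matched in both others left 51 (without replicate 1), 54 (without 2) and 55 (without 3) of the 79, and 4, 5 and 4 of the 7 start groups with a summit. The median per kb of the 10 genes was then 0.0769, 0.0813 and 0.0813, in place of 0.12. In the full lists of 30000, replicates 1, 2 and 3 had a summit within 100 bp of 77, 71 and 76 of the 79. All 3 replicates were called against 1 control, and its part in their overlap was not tested.

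**Figure D4:**
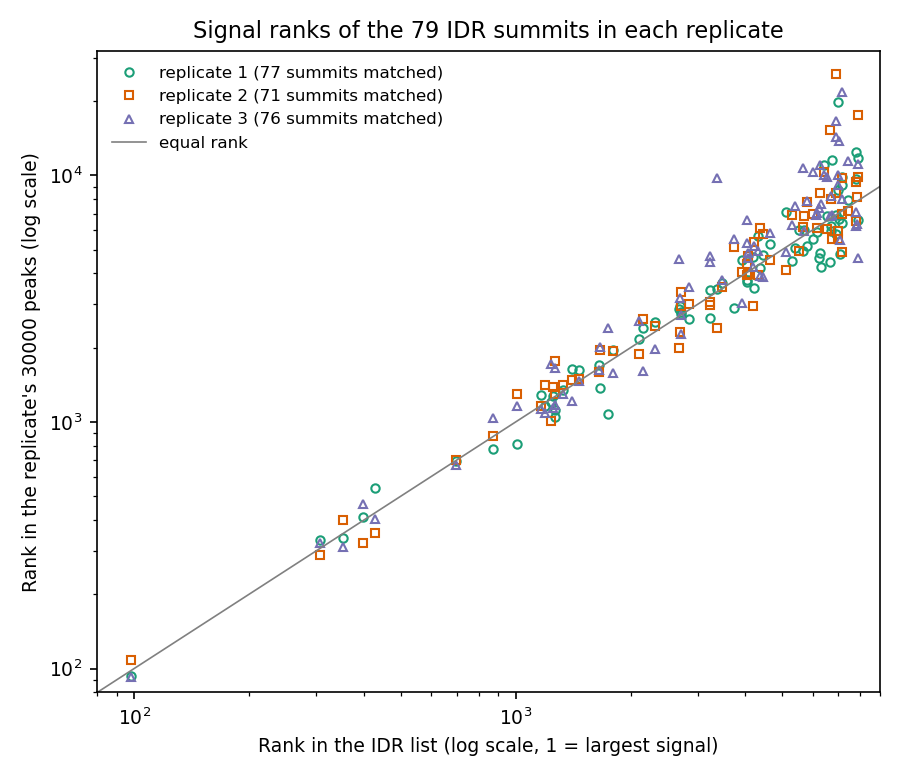
Rank of each of the 79 summits in the 3 replicate lists of 30000 peaks (y axis) against its rank in the IDR list (x axis), both log scales, with the nearest replicate summit within 100 bp; the grey line marks equal rank. Points lie close to the line for the strongest summits (98 in the IDR list against 93, 108 and 92) and scatter on both sides of it among the weakest. The usp summit with rank 7904, for example, ranks 11729, 17524 and 4635 in replicates 1, 2 and 3.

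Many flank summits of the 10 genes also lay near the start of another gene. The counts here of summits near other starts were not made for the background, so they are not read as particular to the 10 genes. Of the 11 in flanks, 8 lay within 500 bp of the start of another gene, 7 of them of a protein-coding one, among them Vps60 beside Eip74EF, CG34221 beside Hr3, Nufip beside ftz-f1 at 111 bp and Actn beside usp at 419 bp. Of the 57 intron summits, 1 did so, the EcR summit at the tRNA gene, and 10 were nearer to the start of another protein-coding gene than to a start of their own. Of the 8 start summits, 4 lay within 500 bp of the start of another protein-coding gene, all of them in usp and Hr39. Among protein-coding genes, all 17 summits of Eip75B were nearest to its own starts, though several lay nearer to the start of a non-coding RNA gene, among them the one at 17981335, 506 bp from lncRNA:CR45921. Close pairs occurred as well: 6 of the 69 gaps between neighbouring summits of the 10 genes were under 250 bp (8.7%), against 3.78% of the gaps in the IDR list, and 199 bp was the smallest gap in any list. The gaps of the 10 genes were taken within each gene and its flanks, which leaves out the gaps between genes. Those of the IDR list run along whole arms, so the shares are not like for like.

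The motifs under the summits were counted beside those of all IDR summits. Within 100 bp of the summit, on either strand, the half-site bound by many nuclear receptors (AGGTCA or GGGTCA) was present at 6 of the 79 (7.59%), against 6.64% of all IDR summits. Within 50 bp it was present at 4 of the 79 (5.06%), against 2.97%, and within 200 bp at 16 (20.3%), against 13.9%. Those with a half-site were in usp, Eip75B, Eip74EF, br, Hr3 and Hr4, 1 in each, and the Hr3 one is the summit with rank 98. The Hr4 one is the summit with the palindrome, which counts as a half-site too because A precedes it. GAGAG, which is bound by GAGA factor, was present at 17.7% of the summits, against 19.1% of all IDR summits. CAGGTA, bound by the embryonic activator Zelda, was present at 5.06%, against 3.87%. CGATA was present at 20.3%, against 23.5%, and TATCGATA, which contains it and is the DNA replication-related element, at 0 of the 79 against 2.08%. A count of 0 (with 3 counts as its limit) allows a share of up to 3.8%, so a difference from the other summits was not detectable with 79. The shares of the other motifs moved with the window too, in both directions. Within 50 bp they were 11.4% against 7.72% for GAGAG, 3.8% against 1.8% for CAGGTA and 11.4% against 11.8% for CGATA. Within 200 bp they were 36.7% against 42%, 10.1% against 7.72% and 31.6% against 41.6%. The GC content within 100 bp of the summit had a median of 31.8%, against 32.8% for all IDR summits.

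The rest of the ecdysone pathway was described through 4 lists of 53 genes, all of which were matched to the annotation. Among 10 genes for making, degrading and importing ecdysone, 1 had an IDR summit at a start: shd, which encodes the hydroxylase that makes the active hormone (495 bp upstream, rank 3162). In this list 7 genes, nvd, spo, spok, sro, phm (phtm in the annotation), dib and Cyp18a1, had no IDR summit at all, and the importer gene EcI (Oatp74D) had 2 in introns. The share of all protein-coding genes without any IDR summit was not counted, and their median total was 1. Among 10 receptor partners and juvenile hormone factors, 4 had a start summit: alien (rank 1029), tai, for a coactivator of EcR (1295), DopEcR, for a membrane receptor of dopamine and ecdysone (2370), and bon, for a cofactor of the response (8075). In the same list Smr, for a corepressor of EcR, had 9 intron summits and gce, for a juvenile hormone receptor, 4, without one at a start.

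For these lists too, the share of all protein-coding genes with a start summit was 22.8%, and that of all genes of 10 kb or more 39.4%. Of 20 later targets, 5 had a start summit: Eip63F-1 (rank 783), the cell death gene hid (881), crol, for a zinc finger factor (5761), the cell death gene rpr (6895) and Eip63E (7053). Of the other 13 nuclear receptors of the fly, 4 had one: Hr96 (rank 504), Hnf4 (817), Hr78 (903) and ERR (1125). The 4 start summits of these receptors ranked above 6 of the 7 start groups of the response genes that had one, all but Eip75B-RC, and they lay between 119 and 278 bp upstream. By replicate, Hr96 ranked 570, 516 and 441 and Hr78 1016, 808 and 799 in replicates 1, 2 and 3. The members of these lists were chosen with earlier results of the data known, and the 10 genes are longer, with a median span of 55.7 kb, against 8.06 kb for the other nuclear receptors and 2.5 kb for the later targets.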

How the data were processed

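The samples are 3 biological replicates of 1 group, so p-values were not computed and ± values are SDs over the replicates' own lists. Per the deposited text files, each replicate's peaks came from its own alignments and 1 shared control, the pooled list from all 3 alignments, and the IDR list from the replicate and pooled lists. The aligner, the peak caller and its thresholds were not given in the sources used here. A peak's deposited signal value is the authors' own, its scale is not stated, and it served for ranks inside a list and nothing else. Another deposited column, −log10 of q, does not vary in the IDR list and was left aside. The depth of sequencing cannot be read from peak lists, and intervals on shares were not computed.

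The summit is the interval's start plus the deposited offset; 2, 6, 3, 5 and 7 offsets in the IDR, pooled and replicate 1, 2 and 3 lists lay past the interval's end and were set to its last base. The annotation was Ensembl release 115 and the genome RefSeq Release 6, both dm6. Starts of a gene within 500 bp of the next formed 1 group. Each summit took 1 class per gene, in the order start, intron or exon, flank, and a flank summit may be counted for several genes of the background. Summits matched between lists within 100 bp. No 2 replicates shared a peak equal in summit and signal. The classification was tested on simulated data. Python 3.11.15, numpy 2.4.6, pandas 2.3.3 and matplotlib 3.10.9 were used. The 10 genes, the other gene lists and the motifs were chosen with earlier results of these data known. Named were all 10 genes with every start group and the strongest summit outside start windows, up to 6 genes per list with a start summit, and the 3 long genes above and below the densest gene; of those above usp there was 1. Other genes in the text are neighbours of a summit or were named after their values were seen.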

Additional observations from a re-analysis of the deposited data

How the results depend on the processing

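No paired analysis was possible because all replicates belong to 1 group. The total of 79 summits changed little with flanks of 2 or 10 kb (73 and 87) and was 57 when summits nearer another protein-coding start were dropped. It was 39 among the 4094 strongest IDR peaks and 297 in the pooled list, and 51 to 55 when each replicate was left out (51 without replicate 1), which also keeps fewer peaks. The 4 genes with a start summit were 4 and 5 with start windows of 250 and 1000 bp, 3 among those 4094, 8 in the pooled list and 3 to 4 without a replicate. The 7 start groups were 6 and 8 with those windows, 3 among those 4094, 17 in the pooled list and 4 to 5 without a replicate (4 without replicate 1 or 3). The median per kb of 0.12 was 0.056 among those 4094, 0.5 in the pooled list, 0.0819 with the nearest-start rule and 0.0769 to 0.0813 without a replicate. In the IDR list the median of the background was 0 over all protein-coding genes or 0.0365 over those of 10 kb or more. In the pooled list these medians were 0 and 0.184, and for the other settings the background median is not given here. The 6 half-sites were 2 among those 4094, 34 in the pooled list, 16 within 200 bp of the summit (20.3%, against 13.9% of all IDR summits) and 3 to 4 without a replicate (3 without replicate 1 or 3). The 48 summits matched in every replicate were 41 and 56 with distances of 50 and 250 bp. These counts follow the number of peaks or bases that each setting keeps.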

Other observations

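The deposited intervals of the 10 genes' peaks had a median width of 416 bp and quartiles of 270 and 416 bp (n = 79), against a median of 347 bp and quartiles of 230 and 416 bp for all IDR peaks. Many of the 79 had a width of exactly 416 bp, with ranks between 4323 and 7903. The higher median is that repeated width and is not read as broader peaks. The widest, 667 bp, held the pair of summits beyond the 3′ end of Hr4 at 2009656 and 2009859, between PIG-K and lncRNA:CR45478. The other close pairs were in usp, Eip75B, Hr3 and ftz-f1, and their members differed in rank: 2152 and 7904 at usp-RA, and 2851 and 6899 in the Eip75B intron at 18030076 and 18030276.

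Of the 69 palindromes on the 6 arms, 9 lay within 500 bp of a pooled summit, and the Hr4 one was the only one within 100 bp. The other within 500 bp of an IDR summit was on X at 2788471 to 2788481, 349 bp from it. The distance from an intron summit to the nearest start of another protein-coding gene varied widely within these loci: 2613 bp from CG14589 at the EcR summit 6134690, and 61725 bp from CG32192 at the Eip75B summit 17978592.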
